A study of Mus with 2 samples.

Results

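The outer rim of a control CT26 tumor was compared with the interior of the same section. Every spot over tissue was given a step number by its distance from the outer edge of the biggest unbroken piece of tissue. A step 1 spot had at least 1 of its 6 neighbours on the hexagonal grid off the tissue, each further ring inward added 1, and inner holes were not counted as outline. Spots of steps 1 and 2 formed the rim, 401 spots, and spots of step 6 and beyond formed the interior, 1319 spots, out of 4172 tissue spots in the series. Position alone chose them, so no gene was used.

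Visium spatial transcriptomics captures polyadenylated RNA from a frozen tissue section on barcoded spots, and a unique molecular identifier (UMI) marks each captured molecule. CT26 is a mouse colon carcinoma line that grows under the skin of BALB/c mice of its own strain. The control mouse received PBS and the other mouse 10 µg recombinant mouse IL-7 (rIL7), injected into the peritoneum on days 11 and 13 after the transplant, and tumors were taken on day 15. Both mice were BALB/c, 6 to 8 weeks old and, by the study's methods, female, and each group holds 1 section of 10 µm. A single section carries no replicate, so no test was possible, and the intervals given are exact 95% intervals that cover counting error only. As a measure of spread within the section, it was cut at its middle row and column into 4 quadrants, numbered 1 (upper left), 2 (upper right), 3 (lower left) and 4 (lower right), which are not replicates.

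The main piece held 2209 of the 2221 tissue spots of the control section and 4 inner holes, and 2 of its spots had 200 or fewer genes and were left out. The rim gathered 4470976 UMIs and the interior 12953977 UMIs, with medians of 10901 and 9135 UMIs per spot. Depth was lower further in, from a median of 10181 UMIs at step 1 and 11604 at step 2 to 8348 at step 13 and beyond. Values are UMI counts scaled to 1000000 UMIs of the zone (CPM). A spot is a small region that can hold several cells, so a lower level cannot tell fewer cells of a type from less RNA per cell.

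Cells that sense foreign or displaced nucleic acid release type I interferon, which acts through a JAK1 and TYK2 coupled receptor and factors such as STAT2 and IRF9 to switch on a set of antiviral genes. Among them IRF7 feeds back on interferon production, and ISG15 is a ubiquitin-like protein that is joined to other proteins. Interferon-gamma from T and NK cells acts on an overlapping set, which includes MHC class II, guanylate-binding proteins and Cxcl9. The border of a subcutaneous tumor is where tumor, host connective tissue, vessels and newly arrived blood monocytes meet.

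**Figure D1:**
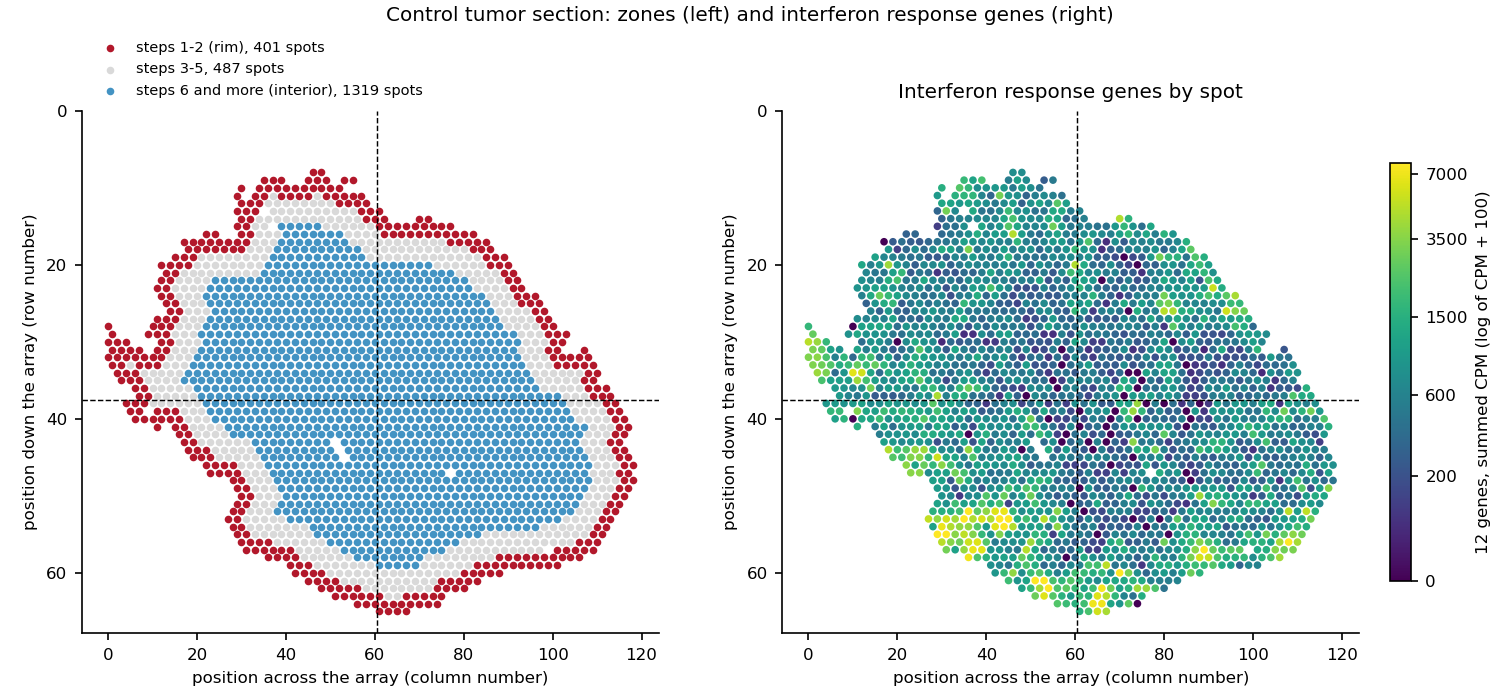
Left, every kept spot of the control section at its array row and column, coloured by zone (401 rim, 487 in steps 3 to 5, 1319 interior). Right, the same spots coloured by the summed CPM of the 12 interferon response genes on a log colour scale, with dashed lines between quadrants. The brightest spots lie near the lower edge, in quadrants 3 and 4, both in the rim and in the rings just inside it.

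Most genes lay within 1.5-fold between rim and interior. Of 7549 genes whose mean over the zones reached 20 CPM, 71 (0.941%) were at least 1.5-fold higher at the rim and 79 (1.05%) at least 1.5-fold lower. The median log2 ratio of rim over interior over these genes was -0.06, with 36.2% of them above 0. All 4 rim quadrants lay above all 4 interior quadrants for 24 of the higher genes (0.318% of genes), and below them for 51 of the lower genes (0.676%). Without a size limit, the quadrants were apart for 184 genes upward (2.44%) and 622 downward (8.24%). At 2-fold, 21 genes (0.278%) were higher and 10 (0.132%) lower. Genes just inside the limit were Samd9l at 1.51-fold and Ctsh at 1.51-fold, and just outside were Cd52 at 1.498-fold and mt-Co3 at 1.49-fold. Scaling shifted the balance, since 47.3% of the calls were higher at the rim with total UMIs, 63.6% with TMM (91 and 52 genes) and 64.4% with median-of-ratios factors (94 and 52). Quadrant 1 also weighed on the counts, which were 148 and 149 without it, with 65 and 66 of the original genes among them.

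**Figure D2:**
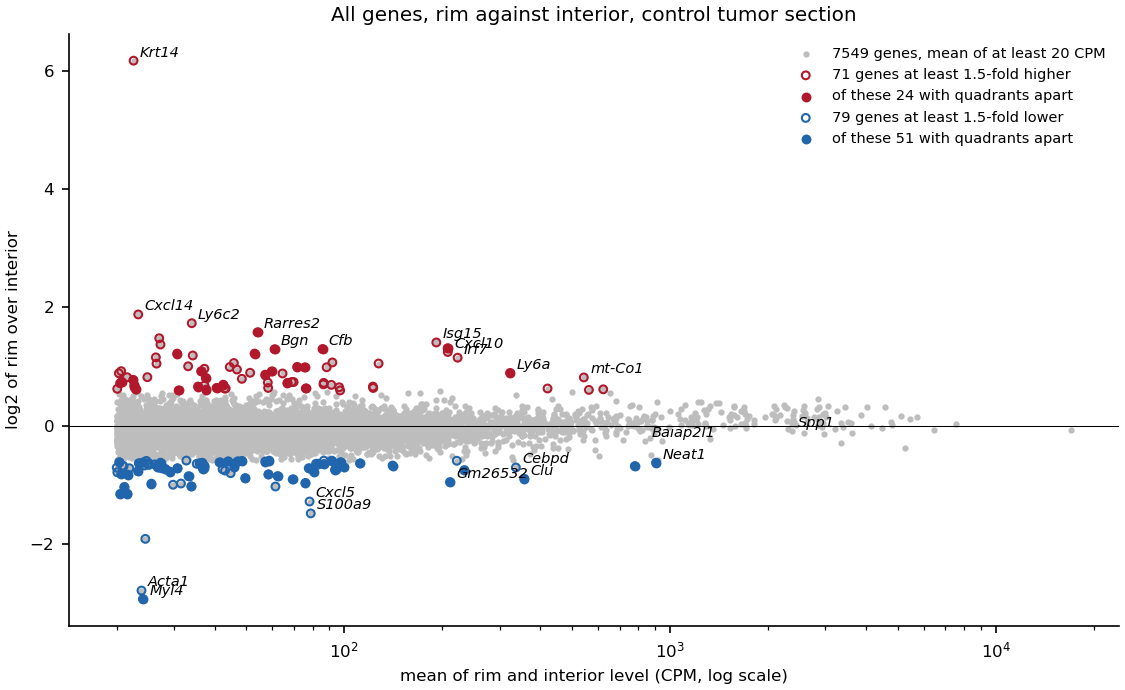
Each point is 1 of 7549 genes, placed by its mean level over the zones (CPM, log axis) and its log2 ratio of rim over interior. Red marks the 71 genes at least 1.5-fold higher and blue the 79 at least 1.5-fold lower, filled where the quadrants do not overlap. Krt14, whose rim UMIs all lie in quadrant 1, is the highest point and the muscle genes Myl4 and Acta1 the lowest.

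Interferon-stimulated genes were higher at the rim. All 12 genes of the interferon response list were higher there, with a median log2 ratio of 1.03 against -0.07 over all 12791 genes with at least 20 UMIs. Their summed level was 1454 CPM at the rim and 703 CPM in the interior, 2.07-fold (2.004 to 2.14) higher. By quadrant the rim stood at 946, 1246, 2441 and 1799 CPM, and the interior at 661, 578, 1058 and 649 CPM. The rim was above its own interior in every quadrant, but the interior of quadrant 3 exceeded the rim of quadrant 1, so that the quadrants overlapped. Of the rim spots, 81.5% lay above the median interior spot and 39.9% above the 90th percentile of interior spots. The 41 richest rim spots held 37.0% of the list's rim UMIs.

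The gradient ran on beyond the rim. The interferon response list stood at 1346 CPM at step 1, 1563 CPM at step 2, 1348 CPM at step 3 and 1075 CPM at steps 4 and 5. It was 867 CPM at steps 6 to 8, 711 CPM at steps 9 to 12 and 507 CPM from step 13 inward. The level was thus highest at step 2 and lower in each bin further in.

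Isg15 (chromosome 4, 156199424 to 156200818, GRCm38) had rim values of 140.2, 220.2, 499 and 419 CPM in quadrants 1 to 4 and interior values of 78.1, 81.8, 179.6 and 118 CPM. Over the whole zones it stood at 278 CPM at the rim and 105 CPM in the interior, 2.65-fold (2.45 to 2.87) higher at the rim, and it was lowest at steps 13 and beyond with 66.1 CPM. In each quadrant the rim was above the interior, although quadrant 1 of the rim lay inside the range of the interior quadrants. Of the enzymes that handle ISG15, Ube2l6, which conjugates it, was 1.89-fold (1.59 to 2.26) higher with quadrants apart. Usp18, which removes it and dampens interferon signalling, was 2.08-fold (1.78 to 2.44) higher, and the ligase Herc6 1.42-fold (1.15 to 1.74). Uba7, the activating enzyme, stood at 148 CPM at the rim and 145 CPM in the interior. Uba7 was thus near level while Isg15 and the other enzymes were higher at the rim.

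Irf7, the transcription factor that amplifies interferon production, had rim values of 236, 262, 479 and 347 CPM and interior values of 124, 108, 244 and 121 CPM, 2.22-fold (2.07 to 2.38) higher. Its upstream relay was flatter. Stat2 was 1.43-fold (1.25 to 1.63) higher, whereas Irf9 was 1.095-fold (0.915 to 1.31), Jak1 0.998-fold (0.879 to 1.13) and Tyk2 0.953-fold (0.817 to 1.11). Jak2 was lower at the rim, at 46.1 against 59.4 CPM, with quadrants apart. Irf8, a factor of macrophages and dendritic cells, was 1.41-fold (1.18 to 1.68) higher. The relay list, written after the all-gene result had been seen, holds Irf7 itself. Of its 12 genes, 8 were higher at the rim, with a median log2 ratio of 0.22.

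The receptor chains did not show the pattern of the targets, and the ligands were too sparse to compare. The type I receptor chains stood at 30.9 CPM at the rim and 30.4 CPM in the interior for Ifnar1 and 74.9 CPM at the rim and 69.7 CPM in the interior for Ifnar2. The interferon-gamma receptor chains were 0.928-fold (0.846 to 1.02) for Ifngr1 and 0.863-fold (0.744 to 0.999) for Ifngr2. Ifng itself gave 8 UMIs at the rim and 23 in the interior, and Ifnb1 2 and 4, which is too few to place either ligand. The list of ligands and receptors was written after the all-gene result had been seen. Over its 5 measured genes, of 11, the median log2 ratio was 0.01.

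Antiviral effectors were higher as a block, 22 of 22 measured genes with a median log2 ratio of 0.96. Their list was written after the all-gene result had been seen, so this count is not independent of that result. Rsad2, which makes an antiviral nucleotide, was 2.79-fold (2.26 to 3.44) higher and Ifi27l2a, a small interferon-induced mitochondrial protein, 2.48-fold (2.302 to 2.67). Rim values of Ifi27l2a (chromosome 12, 103433873 to 103443680) were 243, 272, 455 and 282 CPM, all above its interior values of 116, 89.1, 189.7 and 105 CPM. Oasl1, a regulator of the interferon response of the oligoadenylate synthetase family, was 2.33-fold (1.91 to 2.83) higher with quadrants apart, and Oas3 was 2.28-fold (1.89 to 2.74), Oas1a 2.23-fold (1.805 to 2.75). Bst2, which tethers virus particles to the cell surface, was among the most abundant, at 755 CPM at the rim and 493 CPM in the interior. Oas, Slfn and Ly6 genes have near-identical copies, so their single-gene values are uncertain.

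Sensors of viral nucleic acid and the interferon-inducible GTPases moved less. The RNA sensors Dhx58, Ifih1 and Ddx58 were 1.73-fold (1.49 to 2.02), 1.48-fold (1.18 to 1.84) and 1.45-fold (1.24 to 1.700) higher, and Zbp1, a sensor of left-handed nucleic acid, 1.62-fold (1.45 to 1.82). Mavs, the adaptor below the RNA sensors, stood at 57.5 CPM at the rim and 62.3 CPM in the interior, and Tmem173, which encodes STING, at 88.6 CPM at the rim and 97.7 CPM in the interior. Of 14 GTPases that act on vacuoles of pathogens, 13 were higher with a median log2 ratio of 0.43, led among genes of at least 20 CPM by Igtp at 1.65-fold (1.45 to 1.88), Gbp3 at 1.56-fold (1.32 to 1.84) and Gbp7 at 1.54-fold (1.31 to 1.82). In all, 24 of the 71 genes past the size limit (33.8%) belonged to at least 1 of 6 interferon lists (all but ligands and receptors), which hold 0.715% of the genes measured at this level. The interferon response list was fixed with earlier results known, and the other 5 were written after the all-gene result had been seen.

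The monocyte list was also higher at the rim, although its gene Ccr2 was near level. All 7 measured genes of the monocyte list were higher at the rim, with a median log2 ratio of 0.99. Of the 6 with at least 20 CPM, 4 passed 1.5-fold, against 0.941% of all 7549 genes. Summed, they stood at 413, 487, 749 and 489 CPM in the rim quadrants and 363, 291, 351 and 241 CPM in the interior quadrants, which did not overlap. Ly6c2 (chromosome 15, 75108161 to 75112066), the surface marker of classical monocytes, had rim values of 22.3, 50.5, 106 and 63.6 CPM against 12.9, 17.1, 25.2 and 13.6 CPM in the interior and was 3.32-fold (2.74 to 4.03) higher. The rim of Ly6c2 was above its interior in each quadrant, but the rim of quadrant 1 lay below the interior of quadrant 3. As a Ly6 gene it has near-identical copies, so its single-gene value is uncertain. Plac8, Ms4a4c and the Fc receptor gene Fcgr4 were 2.33-fold (2.01 to 2.698), 1.98-fold (1.75 to 2.24) and 1.89-fold (1.65 to 2.16) higher, each with quadrants apart. Vcan, a matrix proteoglycan that monocytes also make, was 4.16-fold (2.596 to 6.76) higher from 46 rim UMIs. Ccr2, the receptor that draws monocytes out of the blood, did not stand apart, at 81.0 CPM at the rim and 79.1 CPM in the interior. Across the 344 rim spots with at least 5000 UMIs, thinned to that depth, Spearman's rho between the summed interferon response and monocyte genes was 0.43, against 0.19 across 1258 interior spots. These spots share 1 section and their neighbours, and the rho values are a description. Both sums were lower in the interior, 315 against 507 CPM for monocyte and 703 against 1454 CPM for interferon response genes. The part of counting error in the lower interior rho was not tested.

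Of 17 measured chemokine genes 10 were higher at the rim and 7 lower. Among the 12 with at least 20 CPM, 4 passed 1.5-fold upward and 1 downward, against 0.941% and 1.05% of all 7549 genes. Chemokine genes under 20 CPM are left out of these 2 counts, whatever their ratio. Cxcl10, the interferon-induced ligand of CXCR3, had rim values of 162, 289, 517 and 341 CPM and interior values of 122, 116, 176 and 101 CPM, 2.37-fold (2.203 to 2.55) higher, and Cxcl9, another ligand of that receptor, was 1.48-fold (1.29 to 1.69) higher. Ccl5 was 1.56-fold (1.41 to 1.71) and Ccl8, which attracts monocytes, 2.07-fold (1.89 to 2.28) higher. Cxcl14, a chemokine of epithelium and fibroblasts, was 3.68-fold (2.91 to 4.68) higher, and its rim quadrants of 22.9, 11.3, 96.8 and 41.7 CPM place most of it in quadrants 3 and 4. Ccl2, the main ligand of CCR2, went slightly the other way, at 601 CPM at the rim and 674 CPM in the interior. Cxcl5, Cxcl1 and Cxcl2, which attract neutrophils through CXCR2, were lower at the rim. Cxcl5 was 2.43-fold (2.098 to 2.83), Cxcl1 2.39-fold (1.68 to 3.49) and Cxcl2 8.15-fold (3.39 to 25.5) higher in the interior, the last from 5 and 118 UMIs.

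**Figure D3:**
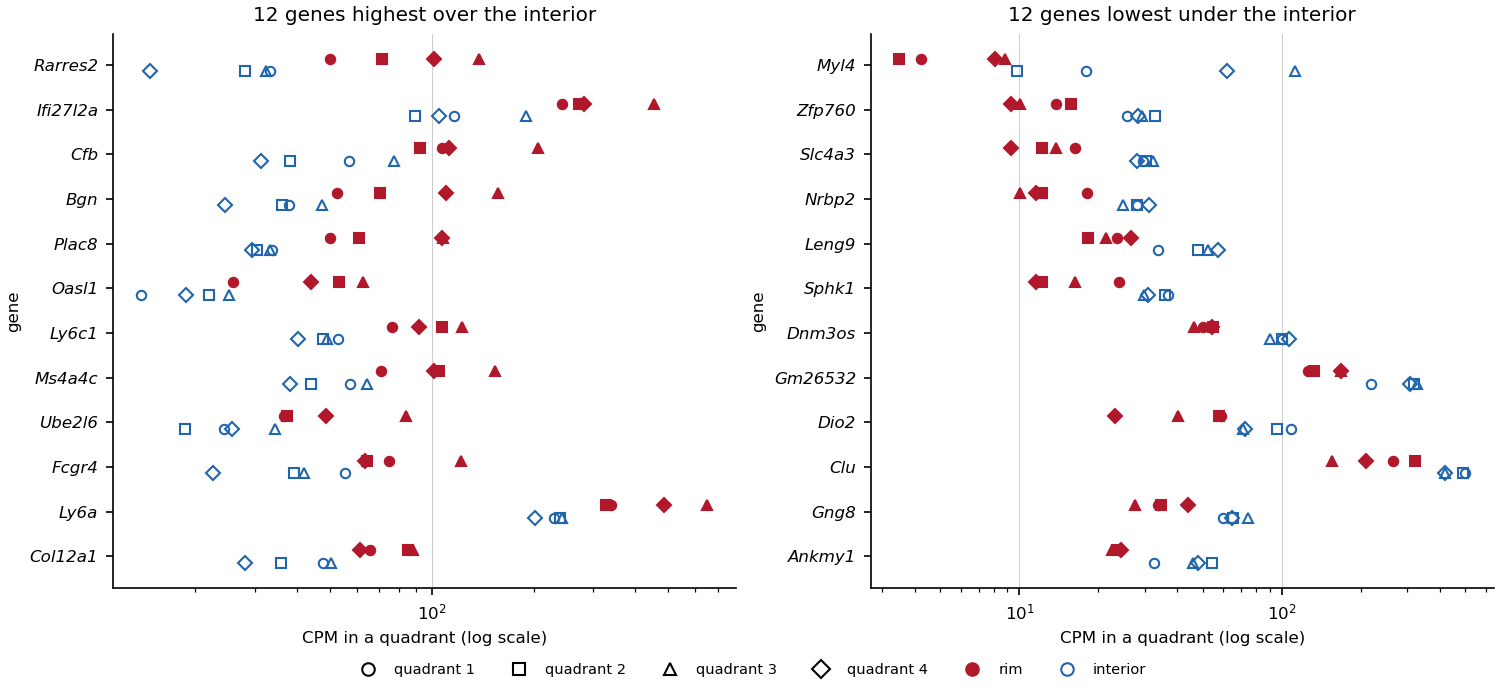
CPM of the 12 genes with the highest and the 12 with the lowest ratio of rim over interior among genes past 1.5-fold whose quadrants do not overlap. Filled red symbols are the 4 rim quadrants and open blue symbols the 4 interior quadrants, on a log axis. Among the rim values, quadrant 3 is the highest for all 12 genes on the left, by a small margin over quadrant 4 for Plac8.

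The 12 largest ratios with separated quadrants also included the following genes. Rarres2 (chromosome 6, 48569696 to 48572845), which encodes the chemoattractant chemerin, had rim values of 49.9, 71.4, 138 and 102 CPM against interior values of 33.2, 28.1, 32.3 and 14.7 CPM, 2.99-fold (2.57 to 3.47) higher. Bgn (chromosome X, 73483601 to 73495936), the small proteoglycan biglycan, had 52.3, 70.5, 157 and 109.9 CPM against 37.8, 36.2, 47.4 and 24.6 CPM, 2.45-fold (2.13 to 2.81) higher. Cfb (chromosome 17, 34856374 to 34862514), the enzyme precursor of the alternative complement pathway, had 107, 92.3, 206 and 112 CPM against 57.0, 38.2, 77.2 and 31.2 CPM, 2.46-fold (2.19 to 2.76) higher. For all 3 genes quadrant 3 was the highest and the lowest rim quadrant still exceeded the highest interior quadrant. Ly6a and Ly6c1, surface proteins of stromal, endothelial and activated lymphoid cells that interferon can induce, were 1.86-fold (1.75 to 1.97) and 1.99-fold (1.76 to 2.26) higher. Col12a1, a collagen that decorates fibrils, was 1.82-fold (1.58 to 2.09) higher.

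Complement genes went both ways. Beside Cfb, the inhibitor gene Serping1 was 1.603-fold (1.28 to 2.003) and C4b 1.59-fold (1.22 to 2.06) higher at the rim, and C3 1.32-fold (1.14 to 1.52). The C1 protease gene C1s1 was 1.77-fold (1.51 to 2.08) higher in the interior with quadrants apart, and its partner C1ra 1.45-fold (1.14 to 1.86). Of the 9 genes, 6 were higher at the rim, with a median log2 ratio of 0.40.

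Collagen and fibroblast genes went both ways. The 16 genes of the fibrillar collagen and fibroblast list had a median log2 ratio of 0.01, 9 of them higher, and summed to 3566 CPM at the rim and 3675 CPM in the interior. Within the list, Col5a2, Col6a3 and Thy1 passed 1.5-fold, at 1.67-fold (1.32 to 2.11), 1.66-fold (1.44 to 1.903) and 1.55-fold (1.32 to 1.82). Col1a1, the chief chain of fibrillar collagen, was 1.38-fold (1.29 to 1.49) higher with quadrants apart, while its partner Col1a2 stood at 855 CPM at the rim and 849.9 CPM in the interior. Pdgfra, the growth factor receptor of fibroblasts, and Fn1, fibronectin, were lower at the rim, at 149 against 216 CPM and 541 against 638 CPM. The adventitial fibroblast list, which holds Ly6a and Ly6c1, had a median of 0.04, with 6 of 8 genes higher. Its sum was 1.16-fold (1.13 to 1.19) higher at the rim, with 1513, 1565, 1746 and 1612 CPM in the rim quadrants above all interior values of 1386, 1370.2, 1324 and 1364 CPM. The basement membrane list had a median of -0.10 with 1 of 10 genes higher, and the endothelial list -0.16 with 4 of 11 higher.

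Antigen presentation genes were modestly higher at the rim, and the difference varied by quadrant. MHC class II genes, which load peptides for CD4 T cells, were higher at the rim in 6 of 7 cases with a median log2 ratio of 0.31, and none reached 1.5-fold. Their summed rim level was 3629.6, 2533, 4377 and 2520.0 CPM in quadrants 1 to 4 and their interior level 4082, 2009, 2407 and 878 CPM. In quadrant 4 the rim stood far above the interior, whereas in quadrant 1 the interior was above the rim. Leaving out quadrant 1 gave a median of 0.91 for the MHC class II list, leaving out quadrant 3 gave 0.18 and leaving out quadrant 4 gave 0.10. H2-Aa was 1.24-fold (1.18 to 1.31) and H2-Eb1 1.26-fold (1.19 to 1.33) higher, and Ciita, the master regulator of the class, stood at 17.0 CPM at the rim and 17.1 CPM in the interior. MHC class I genes had a median of 0.20, with 9 of 10 higher.

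T cell transcripts were sparse. Of 11 measured T cell genes 9 were higher at the rim, with a median log2 ratio of 0.31, and the summed level was 172 against 151 CPM, 1.14-fold (1.04 to 1.24). Trbc2, the receptor chain gene that made up 59.1% of the rim UMIs of the list, was 1.09-fold (0.974 to 1.21). Cd8a gave 36 rim UMIs and was 1.19-fold (0.781 to 1.77), an interval that includes 1. The median of the T cell list was 0.56 without quadrant 1, 0.04 without quadrant 3 and 0.20 without quadrant 4. In the cytotoxic list Ccl5 alone passed 1.5-fold, Gzma was 1.202-fold (1.01 to 1.43) and Prf1 0.948-fold (0.735 to 1.21). Of 6 measured genes of regulatory T cells, 4 were higher at the rim and 2 lower, and none reached a mean of 20 CPM. Among them Il2ra, a chain of the IL-2 receptor, was 2.43-fold (1.296 to 4.53) and Tnfrsf18 2.01-fold (1.34 to 2.98) higher. Foxp3, the defining factor of these cells, had 5 rim UMIs.

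Macrophage genes differed by small amounts. The list had a median of 0.14, with 9 of 12 genes higher and none past 1.5-fold. C1qa, a complement gene of macrophages, was 1.25-fold (1.19 to 1.302) and Apoe 1.22-fold (1.18 to 1.25) higher, and Cd68 stood at 137 CPM at the rim and 145 CPM in the interior. Fcgr1, an Fc receptor gene that interferon-gamma raises, was 1.48-fold (1.32 to 1.66) higher. Lipid-handling macrophage genes had a median of -0.05, and Spp1, osteopontin, was at 2293 and 2436 CPM. Pf4 was 1.13-fold (1.04 to 1.24) and Il1b 0.864-fold (0.783 to 0.952), while Arg1 gave 60 rim UMIs and 1.17-fold (0.850 to 1.58), with an interval that includes 1. Among spots of 8000 to 12000 UMIs Arg1 was at -1.91 on the log2 scale, and without quadrant 1 at -0.093. Mast cell genes were higher in 6 of 6 cases with a median log2 ratio of 0.79. Only 1 of the 6 reached a mean of 20 CPM, and none was called. Their most abundant gene, the tryptase Tpsab1, was 1.43-fold (1.17 to 1.75), and the chymase Cma1, under 20 CPM, 1.99-fold (1.45 to 2.72).

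Genes of the IL-6 cytokine family and of its signalling were lower at the rim. The IL-6 family and STAT3 list was written after the all-gene result had been seen. Of its 14 measured genes, 13 were lower at the rim, with a median log2 ratio of -0.41. Over all 12791 genes with at least 20 UMIs, 38.3% were higher at the rim. Of the 9 genes of the list with at least 20 CPM, 3 were called lower, against 1.05% of all 7549 genes. Summed rim values of 1180.4, 1369, 900.0 and 997 CPM lay below all interior values of 1776, 1958, 1438 and 1617 CPM. 11.0% of rim spots lay above the median interior spot. Clu (chromosome 14, 65968483 to 65981548), the secreted chaperone clusterin, had 266, 321, 156 and 209 CPM in the rim quadrants and 502, 491, 418 and 418 CPM in the interior quadrants, 1.86-fold (1.75 to 1.99) higher in the interior. Osmr, the oncostatin M receptor, was 1.68-fold (1.48 to 1.899) and the transcription factor Cebpd 1.63-fold (1.53 to 1.74) higher in the interior. Stat3 itself was 1.300-fold (1.18 to 1.43), and the cytokines Il11 and Lif 1.44-fold (1.19 to 1.76) and 1.33-fold (1.09 to 1.62). Il6 gave 12 and 63 UMIs, 1.81-fold (0.968 to 3.69). The level of the list was higher in each bin further in, from 1108 CPM at step 1 to 2115 CPM from step 13 inward, opposite to the interferon response.

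The 12 lowest ratios with separated quadrants also included the following genes. Dnm3os (chromosome 1, 162217623 to 162225550), a noncoding RNA that hosts microRNAs, had 49.9, 54.8, 46.5 and 54.4 CPM in the rim and 101, 100.5, 90.3 and 106 CPM in the interior, 1.96-fold (1.698 to 2.26) higher inside. Gm26532, a predicted gene, was 1.94-fold (1.78 to 2.11) higher inside at 278 CPM. Outside these 12, Neat1, the RNA scaffold of nuclear paraspeckles, was 1.54-fold (1.48 to 1.603) higher inside with quadrants apart. Malat1, another nuclear RNA outside the 12, was 1.16-fold (1.06 to 1.26) higher inside, under the 1.5-fold limit. Within the 12, Zfp760, Slc4a3, Nrbp2, Leng9, Gng8 and Ankmy1 were between 1.81-fold and 2.22-fold higher in the interior. Sphk1, which makes the lipid signal sphingosine-1-phosphate, was 1.97-fold (1.55 to 2.55) and Dio2, the enzyme that activates thyroid hormone, 1.88-fold (1.62 to 2.18) higher. Median UMIs per spot were lower further in, where these genes were higher. Among spots of 8000 to 12000 UMIs only (93 rim and 635 interior), the list of nuclear noncoding RNAs had a median of -0.39, against -0.35 in all spots. The IL-6 family list had -0.45 there, against -0.41 in all spots. Both lists were written after the all-gene result had been seen, and Neat1 held 73.6% of the rim UMIs of the first. The part of depth in any of these ratios was not tested.

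**Figure D4:**
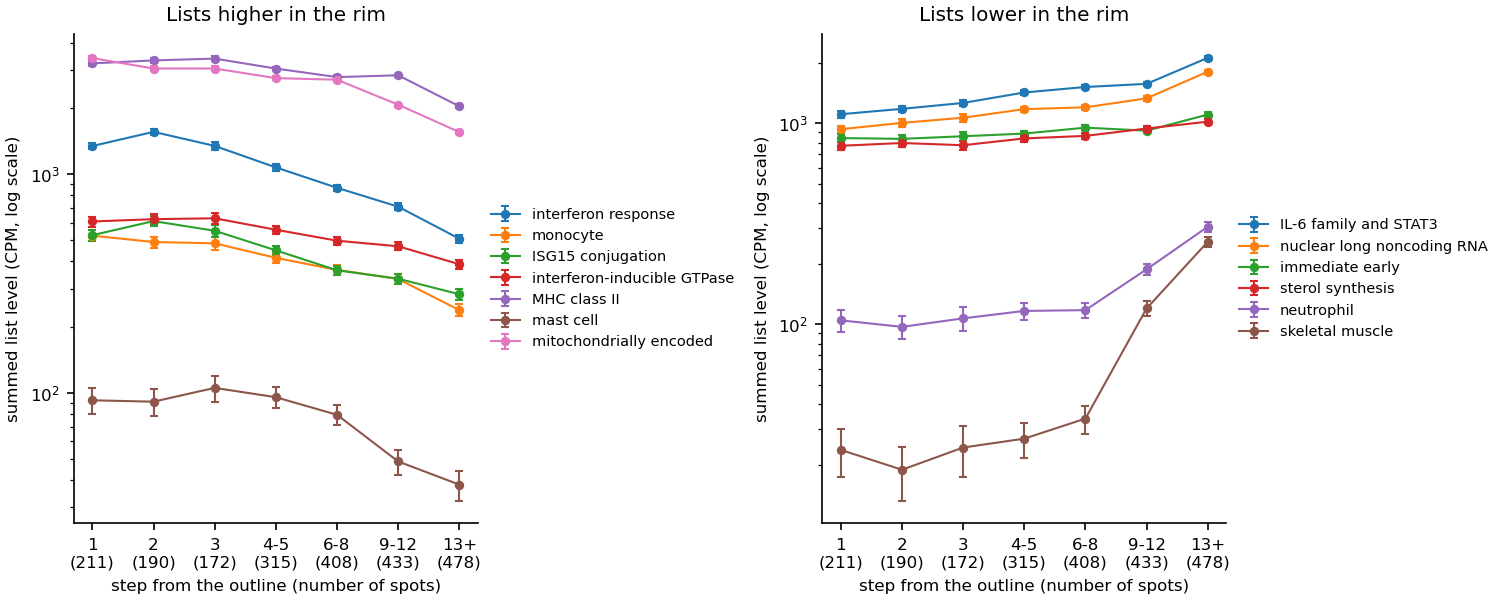
Summed level of 13 gene lists (CPM, log axis) by step from the outline, with the number of spots in each bin under the axis and bars for 95% counting intervals (normal approximation). Lists on the left are lower toward the centre, and those on the right higher. The skeletal muscle list goes from 33.9 CPM at steps 6 to 8 to 257 CPM at step 13 and beyond.

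Markers of neighbouring tissues lay in separate places. Keratinocyte genes were higher at the rim in quadrant 1. Krt14 gave 119.7, 0, 0 and 0 CPM in the rim quadrants and 0.618 CPM in the interior, and Krt5 98.1, 0, 0 and 2.31 CPM. Of 18 rim spots with 3 or more UMIs of the keratinocyte list, 16 were in quadrant 1, and 12 interior spots had as many, 7 of them in quadrant 1. The summed list stood at 144 CPM at the rim and 45.4 CPM in the interior, and outside quadrant 1 the rim was at 31.3 to 49.8 CPM. Their part in the other results of that quadrant was not tested.

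Skeletal muscle genes were lower at the rim, most of all against the deepest steps. Myl4 (chromosome 11, 104546017 to 104587215), a myosin light chain of immature and atrial muscle, was 7.62-fold (5.11 to 11.9) higher in the interior, Acta1, the actin of skeletal muscle fibres, 6.903-fold (4.69 to 10.6), and Mylpf, a fast-fibre myosin light chain, 3.77-fold (2.78 to 5.21). All 9 measured genes of the list were lower at the rim, with a median log2 ratio of -2.79. The skeletal muscle list was at -0.83 with inner holes counted as outline, -0.61 against steps 6 to 8 and -1.95 without quadrant 3. It was at -1.12 without muscle and keratinocyte spots, which were picked by UMIs of these lists, so that shift follows from the selection. Myh4 and Myh1 had no UMI at the rim, which allows up to 3 UMIs in 4470976. Of the 165 interior spots with 3 or more UMIs of the list, 82 were in quadrant 3, 53 in quadrant 4, 30 in quadrant 1 and none in quadrant 2, and no rim spot had as many. Leaving out the muscle and keratinocyte spots gave 65 genes higher and 75 lower, a median of 0.97 for the interferon response list and -0.50 for the IL-6 family list.

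The summed level of the neutrophil list was highest in the interior of quadrant 2, at 487 CPM, against 67.1 to 168 CPM in the other interior quadrants. Of its 6 measured genes, 4 were lower at the rim and 2 higher. S100a9, a calcium-binding protein of neutrophils, stood at 90.8, 318, 27.2 and 61.0 CPM in the interior quadrants and 40.3, 61.8, 31.4 and 26.6 CPM in the rim, 2.79-fold (2.398 to 3.27) higher inside. S100a8, its partner, was 1.997-fold (1.59 to 2.53) higher inside. The remaining measured genes were flatter, with Csf3r, the G-CSF receptor, at 17.4 CPM at the rim and 18.8 CPM in the interior, so that the median of the list was -0.15 although its sum was 1.98-fold (1.79 to 2.19) higher inside. Ly6g, the usual surface marker, had no UMI in either zone.

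RNA from the mitochondrial genome took a larger share of UMIs at the rim, 0.322% (0.317 to 0.328) against 0.214% (0.211 to 0.216). Its sum was highest in quadrant 1, at 4367 CPM in the rim and 3149 CPM in the interior. The cytochrome oxidase gene mt-Co1 was 1.76-fold (1.68 to 1.84) and the cytochrome b gene mt-Cytb 1.55-fold (1.47 to 1.63) higher. Quadrant 3, where the interferon response was highest, had the lowest mitochondrial level of the rim, at 1941 CPM.

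Proliferation, hypoxia and glycolysis genes, which spots cannot assign to tumor cells, had medians from -0.06 to 0.12. Over all 12791 genes with at least 20 UMIs the median was -0.07, and 38.3% were higher at the rim. The 13 mitosis genes had a median log2 ratio of 0.07, with 11 higher, and Mki67 and Top2a were 1.03-fold (0.944 to 1.13) and 1.09-fold (1.005 to 1.18). DNA replication genes had a median of 0.12, with 12 of 14 higher. Summed rim levels of both lists were above the interior of the same quadrant in all 4 quadrants. Hypoxia genes had a median of -0.06, with 6 of 14 higher. Within them Mif, a cytokine gene that hypoxia raises, was 1.28-fold (1.24 to 1.32) higher and Ndrg1 1.21-fold (1.11 to 1.32) higher in the interior. Glycolysis genes had a median of 0.04 and heat shock genes -0.02. Both CT26 marker genes summed to 1252, 1272, 1114 and 1109.6 CPM in the rim quadrants, all below the interior values of 1334, 1347, 1289 and 1359 CPM. Of these genes, Rpl39l was 1.04-fold (0.983 to 1.09) and Baiap2l1 was lower at the rim, at 819, 773, 694 and 715 CPM against 916, 888, 912 and 921 CPM, with quadrants apart.

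A pair of metabolic groups leaned in opposite directions. All 12 sterol synthesis genes were lower at the rim, with a median log2 ratio of -0.21, where 36.2% of all genes of at least 20 CPM were higher, and none reached 1.5-fold. Insig1, a sterol sensor, was 1.43-fold (1.25 to 1.63) higher in the interior with quadrants apart, and Fdft1, which commits precursors to sterols, 1.298-fold (1.13 to 1.49). Of 11 measured genes of the ATF4 amino acid stress response, 10 were higher at the rim, with a median of 0.34. None of the 8 with at least 20 CPM passed 1.5-fold. Chac1, which degrades glutathione and had a mean under 20 CPM, was 1.83-fold (1.29 to 2.56) higher. Mthfd2 was 1.37-fold (1.19 to 1.57) and Phgdh, the entry enzyme of serine synthesis, 1.26-fold (1.17 to 1.36) higher. Atf4 itself was 1.13-fold (1.07 to 1.202) higher in the interior.

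The rIL7 section, split by the same rule into 330 rim and 1173 interior spots, is set beside the control here. There, 482 of 7631 genes (6.32%) were at least 1.5-fold higher at the rim and 386 (5.06%) lower. Of the 71 genes higher at the control rim, 58 (81.7%) were also called higher in rIL7, which is 12.03% of the rIL7 calls. Of the 79 lower genes, 43 (54.4%) were lower in rIL7 too, 11.1% of its calls. The interferon response list had a like median in both, 1.03 in the control and 0.99 in rIL7. Other lists were further apart, since MHC class II gave 0.31 and 1.85, T cell 0.31 and 1.96, and fibrillar collagen and fibroblast 0.01 and 0.67. Macrophage gave 0.14 and 0.88, and endothelial -0.16 and 1.31. Median depth in rIL7 was higher further in, from 11166 UMIs at the rim to 13625 in the interior, opposite to the control. With 1 section in each group none of these differences was tested, and section and treatment cannot be told apart.

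**Figure D5:**
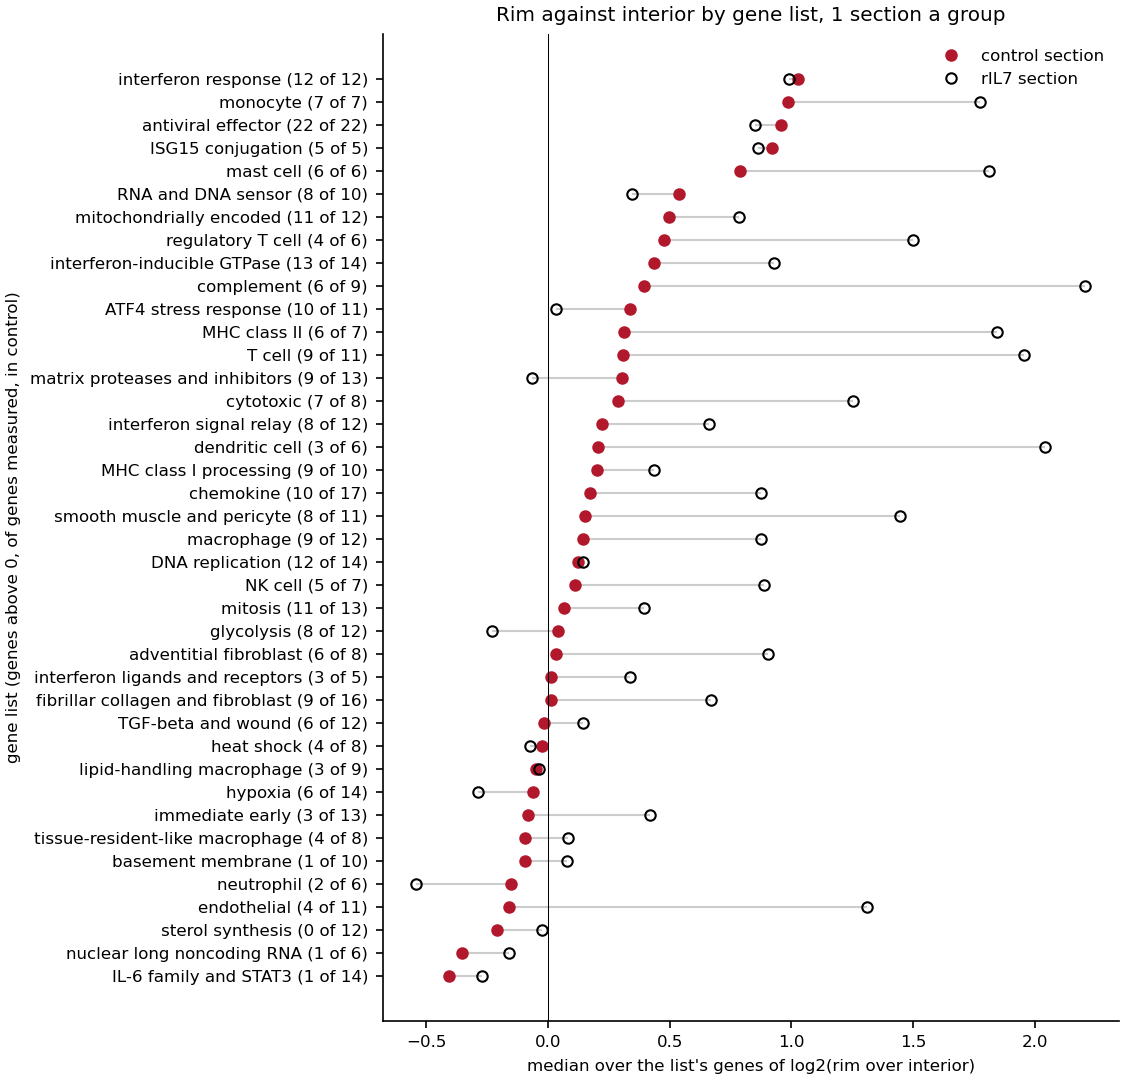
Median log2 ratio of rim over interior for lists with at least 5 measured genes in both sections, in order of the control value (40 lists). Red points are the control section, open points the rIL7 section, and the labels give how many of the measured genes were above 0 in the control. Interferon response is at 1.03 and 0.99, while complement is at 0.40 and 2.21.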

How the data were processed

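Visium 3' libraries of 2 frozen sections, 1 per group, were used. The deposited values are raw counts of UMIs for each gene in each spot, made by the authors with Space Ranger 1.1.0 against mm10 (GRCm38), with 32285 features. Spots over tissue and with over 200 genes were kept, and none reached the limit of 10% mitochondrial UMIs. Spot barcodes are fixed by the slide design, and the sections share 1702 tissue barcodes.

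UMIs were summed over rim and over interior spots and divided by the zone total (CPM). Ratios carry exact conditional binomial intervals, and list medians use genes with at least 20 UMIs, a zone at 0 being set to 3 UMIs. A gene was called at a mean of at least 20 CPM and a ratio of at least 1.5. No test was run, since each group holds 1 section. Spots can hold several cells, so no doublet caller was run. Scripts were checked on simulated data.

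Named genes are the 12 highest and the 12 lowest ratios among called genes whose quadrants did not overlap, 8 genes that the study names, and members of the lists described. Members and all lists were chosen with earlier results of these data known. The 42 first lists were complemented by 8 written after the all-gene result was seen. Added at the same stage were 3 alternatives (spots of 8000 to 12000 UMIs, spots with fewer than 3 UMIs of the muscle and of the keratinocyte list, interior of steps 6 to 8). Other alternatives were equal spot weights, TMM (edgeR 4.0.16) and median-of-ratios (DESeq2 1.42.0) scaling, totals that leave out mitochondrial, ribosomal protein and haemoglobin genes, spots thinned to 5000 UMIs (57 rim and 61 interior spots left out), other rim and interior limits, other gene minima and each quadrant left out. The values of 1 gene are not reported here. Gene positions are from RefSeq (GRCm38.p6), in which 564 of 584 named symbols were matched. Analyses used Python 3.11.15 and R 4.3.3.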

Additional observations from a re-analysis of the deposited data

Results flagged for a closer look

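The immediate early list, genes that cells switch on within minutes of a stimulus, had medians of opposite sign in the sections. Its median log2 ratio of rim over interior was -0.083 in the control section, with 3 of 13 genes higher at the rim, and 0.42 in the rIL7 section, with 10 of 13 higher. The control median is close to that of all 12791 genes with at least 20 UMIs, -0.069, of which 38.3% were higher at the rim, and it reached -0.014 with median-of-ratios scaling. In the control Nr4a1 was 1.63-fold (1.45 to 1.84), Ier3 1.51-fold (1.33 to 1.71) and Egr1 1.24-fold (1.13 to 1.37) higher in the interior, and Jun was level at 142 and 142 CPM. Summed rim quadrants of 779 to 879.9 CPM lay below interior quadrants of 881 to 1181 CPM. The difference between the sections was not tested, and the list was marked because its counting intervals excluded 0 on opposite sides.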

How the results depend on the processing

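No paired analysis was possible because each group holds 1 section. The interferon response list stayed between 0.67 and 1.48 on the log2 scale over all alternatives, highest in spots of 8000 to 12000 UMIs and lowest against steps 6 to 8. Counts of genes higher and lower at the rim (71 and 79) became 143 and 128 with equal spot weights, 118 and 190 in thinned spots, 46 and 44 with the interior from step 3, 199 and 330 at 5 CPM, 481 and 823 with no minimum CPM, 21 and 10 at 2-fold and 225 and 336 in spots of 8000 to 12000 UMIs. They were 91 and 52 with TMM, 94 and 52 with median-of-ratios scaling and 89 and 171 with step 1 as rim. With the interior from step 9 they were 96 and 135, and against steps 6 to 8 they were 48 and 45. Leaving out 1 quadrant gave 53 to 148 higher and 95 to 149 lower genes.

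The MHC class II median (0.31) was 0.59 with equal weights, 0.38 with TMM and with median-of-ratios, 0.51 thinned, 0.24 with the interior from step 3 and 0.39 from step 9, 0.45 with inner holes as outline, 0.56 at 8000 to 12000 UMIs and 0.17 against steps 6 to 8, and 0.10 to 0.91 with 1 quadrant left out. T cell (0.31) was 0.57 with equal weights, 0.66 at 8000 to 12000 UMIs and 0.037 to 0.56 with 1 quadrant left out. Macrophage (0.14) was 0.24 with equal weights and with the interior from step 9, 0.26 with holes as outline, 0.067 against steps 6 to 8 and 0.11 to 0.25 with 1 quadrant left out. Hypoxia (-0.06) was -0.31 with equal weights, -0.20 with the interior from step 9, -0.18 at 8000 to 12000 UMIs, 0.22 against steps 6 to 8 and -0.28 to 0.051 with 1 quadrant left out. Fibrillar collagen and fibroblast (0.01) was 0.077 with TMM, 0.079 with median-of-ratios, -0.10 at 8000 to 12000 UMIs and -0.025 to 0.14 with 1 quadrant left out. Mitosis (0.07) was 0.13 with TMM, 0.14 with median-of-ratios and 0.22 at 8000 to 12000 UMIs.

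Among values whose counting interval excluded 0, signs turned for the matrix proteases and inhibitors list in thinned spots (-0.0012). The keratinocyte list turned without quadrant 1 (-0.015, against up to 5.20 with another quadrant left out). It also turned without muscle and keratinocyte spots (-0.13), which follows from the selection, since those spots were picked by UMIs of these lists. Without quadrant 1 signs also turned for Spp1 (0.0016, lowest -0.17 with another quadrant left out) and Il1b (0.041, lowest -0.39), and for Il1b at 8000 to 12000 UMIs (0.077). Arg1, whose interval includes 0 on the log2 scale, turned to -0.093 without quadrant 1 and -1.91 at 8000 to 12000 UMIs. The cause of the other turns was not tested. Of the other list values 928 moved by less than their counting interval and 161 by more. Low counts limit the interferon ligands, with 8 rim UMIs for Ifng and 2 for Ifnb1.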

Other observations

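Several further genes outside the rule for named genes, chosen after their values were seen, stood at the rim or inside. Slfn4, of a family that interferon induces in myeloid cells, was 1.86-fold (1.602 to 2.15) higher at the rim and Batf2, an interferon-gamma induced factor, 1.75-fold (1.47 to 2.08), the latter with quadrants apart. Adamts2, which trims procollagen, was at 1.76-fold (1.398 to 2.22) and Col7a1, the anchoring fibril collagen of skin, at 1.95-fold (1.64 to 2.32), while Adamts9, another matrix protease, was just under 1.5-fold higher in the interior. In the interior, Pthlh, the parathyroid hormone related protein, was 1.68-fold (1.56 to 1.82) higher at 293 CPM, and Id3, an inhibitor of helix-loop-helix factors, 2.04-fold (1.74 to 2.400). The BMP ligand gene Bmp4 was 1.78-fold (1.37 to 2.33) and the hyaluronan-degrading Cemip 1.81-fold (1.55 to 2.11) higher inside, both with quadrants apart. Vmp1, an autophagy gene, was 1.61-fold (1.54 to 1.67) higher inside at 961 CPM. The granzyme genes Gzmf and Gzmg, were 1.74-fold (1.46 to 2.098) and 1.69-fold (1.41 to 2.04) higher inside, with the rim above the interior in quadrant 2 alone, while Gzmb was 1.24-fold (0.989 to 1.55) for rim over interior.

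In the rim spots thinned to 5000 UMIs, the interferon response list had a rho of 0.30 with MHC class II, 0.14 with T cell, 0.13 with macrophage, -0.13 with CT26 tumor and -0.14 with fibroblast genes. These are descriptions over 344 spots of 1 section.

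The other lists had these medians of the log2 ratio of rim over interior. Matrix proteases and inhibitors stood at 0.31, TGF-beta and wound at -0.02, smooth muscle and pericyte at 0.15 and tissue-resident-like macrophage at -0.09. Dendritic cell was at 0.21, cytotoxic at 0.29, NK cell at 0.11 and chemokine at 0.17. With 1 quadrant left out, dendritic cell ran from -0.053 to 0.86, cytotoxic from 0.15 to 0.85 and NK cell from -0.034 to 0.63. RNA and DNA sensor was at 0.54, ISG15 conjugation at 0.92 and regulatory T cell at 0.48, the last running from 0.28 to 1.20 with 1 quadrant left out. The lymphatic vessel, B cell, plasma cell, naive T cell, adipocyte, Schwann cell and red blood cell lists had at most 4 measured genes each and are not described.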
